A study of Homo sapiens with 4 samples.

Results

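The genes that copy DNA and supply its nucleotides were followed as a set of 59 human genes in MDA-MB-231 cells, covering origin licensing, origin firing, the replication fork, the DNA polymerases and dNTP supply. Members were taken by gene symbol from transcript rows typed as protein coding, and the rule used no measured value, although the list was drawn up with earlier results of these data known. All 59 were listed, among 12120 genes with at least 1 protein-coding row. MDA-MB-231 is a widely used human line of triple-negative breast cancer, which lacks hormone receptors. In this series, cells were exposed for 24 h either to DMSO, the solvent, or to 10 µM KH-3, a small-molecule inhibitor of the RNA-binding protein HuR, with 2 RNA-seq libraries in each group. All 4 libraries came from the same parental line, and the labels name no edited allele in any group.

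The values below are levels pooled over libraries, not differences between KH-3 and DMSO. The only measurement used was the normalized read count of each transcript, averaged over libraries before deposition. Columns that hold the outcome of the DMSO comparison itself were not used, and therefore no response to KH-3 is given here. A pooled mean carries no replicate spread, so no value has an SD or an n, no test was possible, and neighbouring genes in an order of levels cannot be said to differ. The level of a gene was the sum, over its protein-coding transcripts, of the mean normalized read count per kilobase of transcript, given below in reads per kb. In bulk RNA of this kind, fewer cells in S phase and less RNA per cell cannot be told apart.

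DNA replication starts when the origin recognition complex, CDC6 and CDT1 load the MCM2-7 helicase onto origins in G1, the licensing step, which geminin blocks later in the cycle. In S phase the kinases CDC7-DBF4 and CDK2 convert loaded helicases into active forks by adding CDC45 and GINS, polymerase alpha-primase lays down primers, and polymerases delta and epsilon extend them while held by the PCNA clamp. Thymidylate synthase, thymidine kinase and ribonucleotide reductase supply the deoxynucleotides. Many of these genes are textbook targets of the E2F transcription factors, which switch them on at the G1/S boundary and make the set a common readout of proliferation in tumour cells.

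Because of that background, the RefSeq promoter of each member was searched first for E2F-like letters. RefSeq promoter windows (GRCh38.p14, 250 bases before to 50 after the start) were matched for 52 of the 59 members and for 9485 of all genes with a protein-coding row. Members without an entry were RPA3, GINS4, POLD3, RPA2, DSCC1, MCM5 and MCM4. The letters searched on both strands were TTTCGCGC, TTTGGCGC, TTTCCCGC, TTTGCCGC, TTTGGCGG and TTTCCCGG. The 8 windows below belong to the members with the highest level whose match lay wholly before the start. They hold different words of this list, in genes of different roles. Each line is 30 bases, 5′ to 3′ on the strand of the gene, with the matched letters in capitals.
TYMS: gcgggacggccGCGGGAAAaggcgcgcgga
MCM3: cggatggtacgTTTCCCGCcaccgcggggc
CDC6: cgaggccgggcTTTGGCGGgaggtgggaac
TIPIN: gcacggatttgGCGCCAAAcgctgcgggcc
MCM7: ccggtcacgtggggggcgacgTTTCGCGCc
RFC3: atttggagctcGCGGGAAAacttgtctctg
DTYMK: tttggccgaggCCGGGAAAtactagctaat
MCM6: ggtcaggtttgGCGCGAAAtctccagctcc
All 8 were equal to the hg38 sequence.

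The TYMS window, from the thymidylate synthase gene, lay at chr18:657603-657632 (+ strand), inside the span of the opposite-strand lncRNA gene TYMSOS but outside its exons. The MCM3 window, from a helicase subunit, lay at chr6:52284898-52284927 (- strand) in no annotated gene, as did the CDC6 window at chr17:40287840-40287869 (+ strand) and the MCM6 window at chr2:135876511-135876540 (- strand). The TIPIN window was at chr15:66356729-66356758 (- strand), within the annotated span of TIPIN itself but in no exon, since the gene has starts further upstream. Windows of 3 members overlapped an annotated exon and UTR of the same gene, namely MCM7 at chr7:100101398-100101427 (- strand), RFC3 at chr13:33818083-33818112 (+ strand) and DTYMK at chr2:241686864-241686893 (- strand). Their matched letters began between 9 bases (MCM7) and 174 bases (MCM3) before the start, with TYMS at 39 and CDC6 at 28.

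An E2F-like match was found in 27 of the 52 member promoters (51.9%), against 8.95% of all promoters of the same length. Of the members, 10 held more than 1 match, and MCM6 held 4, which lay in 2 overlapping pairs. The matches of MCM2 and those of TIPIN also overlapped, with 1 on each strand, so a count of matches is not a count of separate sites. CCAAT, the letters bound by NF-Y, was present in 57.7% of member promoters and in 36.6% of all. The matches of E2F-like letters and CCAAT overlapped in 1 member, MCM7, and those of the CHR letters overlapped neither. A window with both E2F-like letters and CCAAT was found in 17 members (32.7%) and in 3.60% of all genes. The CHR letters TTTGAA and TTCGAA, an element of genes that peak in G2/M, were in 5 members (DBF4, DTYMK, DUT, MCM6 and RRM1), a share of 9.62% beside 10.7% of all promoters. Base composition was close between the sets, with a median GC content of 65.7% in members and 66.0% in all genes, and a median of 30.5 and 27 CpG per window. Among all promoters with a GC content at or above the median of the members, 8.70% held an E2F-like match. Within the set the median level was 365 reads per kb for members with E2F-like letters and 407 for those without. Over all genes with a promoter window it went the other way, 142 with a match and 121 without. Neither difference was tested. A match describes sequence, and no factor's binding was measured here.

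**Figure D1:**
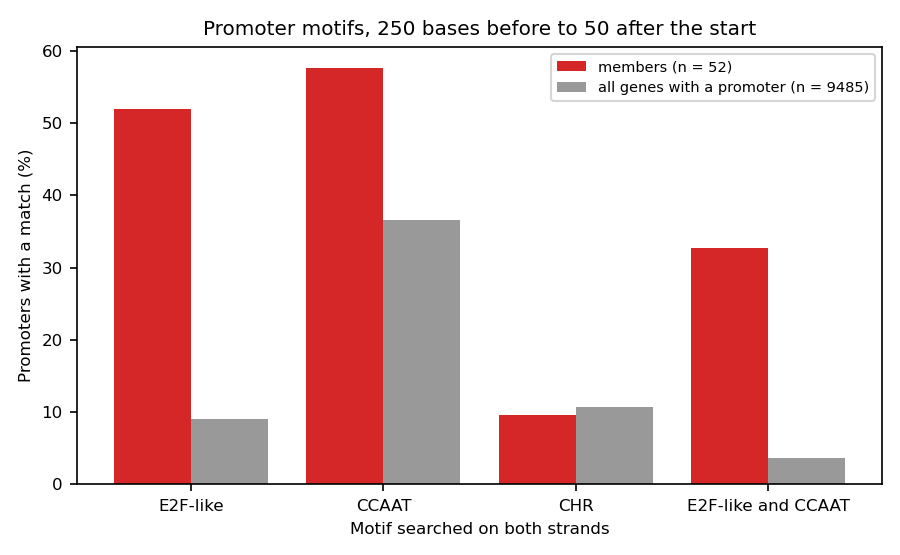
Percent of promoter windows (y axis) that hold each motif on either strand (x axis), for the 52 members with a RefSeq promoter and for 9485 genes. Bars for E2F-like letters stand at 51.9% and 8.95%, whereas those for CHR letters stand at 9.62% and 10.7%.

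As a set, the replication genes were expressed above most genes of the cell line. Their median level was 399 reads per kb, which was 3.40 times the median of 117 over all genes. Of the 59 members, 52 (88.1%) lay above the all-gene median, 36 above its 75th percentile (306 reads per kb) and 16 (27.1%) above its 90th percentile (716 reads per kb). Within 2-fold of the median of the set lay 36 members (61.0%), and 35% of all genes lay within 2-fold of theirs, although the members together ran from 12.2 to 2460 reads per kb. Together the members took 0.739% of the reads in protein-coding rows. The 5 highest were the clamp PCNA with 2460 reads per kb, TYMS with 1913, MCM3 with 1696, the thymidine kinase TK1 with 1598 and MCM4 with 1513. The 5 lowest were DBF4 (12.2), CHTF18 (14.5), LIG1 (19.2), POLA2 (65.0) and ORC4 (81.6). These 5 were joined below the all-gene median by POLD1, the catalytic subunit of polymerase delta, and by ORC2.

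Lists of other proliferation genes gave a scale for these levels. The 33 spindle and mitotic genes, all of them listed, had a median level of 522 reads per kb, and 30 of the 33 were above the all-gene median. They ran from 65.8 for the checkpoint gene MAD2L1 to 1929 for cyclin B1 (CCNB1). MAD2L1 had 68.3% of its reads outside protein-coding rows, which its level leaves out. Homologous recombination and Fanconi genes stood lower, with a median of 120 over the 30 of 32 listed, and 15 above the all-gene median. The median of the replication set was thus nearer to that of the mitotic genes, without a test of either difference. Markers of the line were present: vimentin (VIM) had a level of 3786 reads per kb, AXL 2814, moesin (MSN) 2755, caveolin-1 (CAV1) 2599 and CD44 427. Of the epithelial and hormone receptor genes, ESR1, PGR, CDH1 and GRHL2 had no row, while EPCAM stood at 43.3 and CLDN4 at 139. None of 4 leukocyte markers and 1 of 3 fibroblast markers (PDGFRB, 20.3) was listed.

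**Figure D2:**
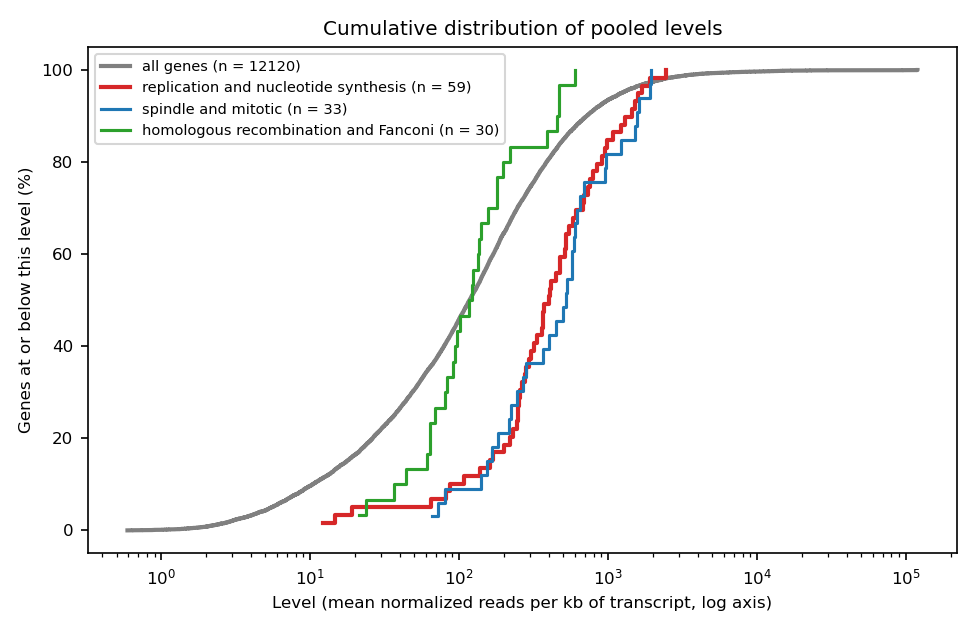
Cumulative percent of genes (y axis) at or below each level in reads per kb (x axis, log scale), for all 12120 genes, the 59 replication members, 33 spindle and mitotic genes and 30 homologous recombination and Fanconi genes. The curve of the members has its median at 399, to the right of all genes at 117 and near the mitotic curve at 522.

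Among licensing factors the helicase had the higher median level and the origin recognition complex the lower. The 6 subunits of the MCM2-7 helicase, which unwinds the template, ranged from 519 reads per kb for MCM6 to 1696 for MCM3. This is a ratio of 3.27 between subunits of a single ring. With other ways of combining transcripts the ratio of highest to lowest subunit ran from 2.54 to 9.64, not always between MCM3 and MCM6. All 6 were above the all-gene median, and their own median was 844. Of the other MCM family genes, MCM8, which acts in recombination, had a level of 478, and MCM10, which helps to start the helicase, had 333. The origin recognition complex, the ATPase platform on which the helicase is loaded, had a median of 209, from 81.6 for ORC4 to 415 for ORC5, a ratio of 5.09. With other ways of combining transcripts the ratio of highest to lowest subunit ran from 1.94 to 20.3. The 1.94 came without division by length, where ORC6 was lowest with 418 reads, beside 530 for ORC4. ORC4 and ORC2 lay below the all-gene median and the other 4 subunits above it. The loader CDC6 had a level of 978, and CDT1, its partner and the lowest of its group, had 399. The third gene of that group, the licensing inhibitor geminin (GMNN), lay between them. Both the CDC6 and the CDT1 level rest in part on short coding transcripts. In CDC6 a transcript of 696 bases gave 46.7% of the level, and the longest, of 4810 bases, gave 407 reads per kb. In CDT1 a transcript of 571 bases gave 174 reads per kb.

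The kinase pair that fires origins had very unequal coding levels. DBF4, the regulatory subunit that activates the kinase CDC7, had a protein-coding level of 12.2 reads per kb, while CDC7 itself had 407, so the partners differed by a ratio of 33.4. Most DBF4 reads stood in other transcript types, and over all types DBF4 had 352.7 reads per kb beside 543.1 for CDC7. GINS, a ring of 4 small subunits that joins CDC45 and the helicase, was the most even complex, with GINS4 lowest at 201 and GINS3 highest at 296, a ratio of 1.47. The GINS ratio of highest to lowest subunit, whichever these were, was the lowest of 6 complexes under each alternative run. It reached 4.56 with canonical transcripts alone. CDC45 fell between CDC7 and DBF4. All of these except DBF4 were above the all-gene median.

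The polymerases held both low and high members. Polymerase alpha-primase makes the RNA-DNA primer. Its regulatory subunit POLA2 had a level of 65.0 reads per kb and the large primase subunit PRIM2 had 320, a ratio of 4.93. Over all transcript types POLA2 stayed lowest at 167, but PRIM1 was highest at 441, a ratio of 2.65. Polymerase delta, the enzyme of the lagging strand, ran from 87.4 for the catalytic POLD1 to 1294 for the small accessory subunit POLD2, a ratio of 14.8. A single annotated protein-coding transcript of POLD2 with a length of 249 bases gave 43.3% of its level, so the ratio rests in part on that short transcript. For polymerase epsilon, the enzyme of the leading strand, the catalytic POLE had 168 and POLE2 had 303.

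The factors that hold the polymerase on DNA and finish the strands included the highest member of the set. PCNA, the sliding clamp, had the highest level of all members at 2460 reads per kb, at percentile 98.2 of all genes. The clamp loader RFC, which opens the ring, had levels from 365 for its large subunit RFC1 to 915 for RFC2, a ratio of 2.51. With canonical transcripts alone other subunits stood at the ends, RFC3 at 552 and RFC4 at 47.2, a ratio of 11.7. RPA coats single-stranded DNA, and its 3 subunits ran from 693 for RPA2 to 1074 for RPA3, a ratio of 1.55. With canonical transcripts alone the order changed, with RPA1 highest at 728 and RPA3 lowest at 98.5, a ratio of 7.40. A coding transcript of 434 bases gave 86.0% of the RPA3 level. Without division by length RPA3 was the lowest of the 3, with 644 reads beside 1055 for RPA2 and 3178 for RPA1. Okazaki fragments are trimmed by the flap nuclease FEN1, which had a level of 1442, and sealed by DNA ligase 1, LIG1, which had 19.2. LIG1 lay at percentile 16.1 of all genes, and its listed coding transcripts had mean normalized counts of 36.0, 20.2 and 12.5.

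Nucleotide supply genes were the highest group of 3 or more genes, with a median level of 945 reads per kb and all 6 above the all-gene median. TYMS, which makes thymidylate and is the target of fluoropyrimidines, was highest at 1913, and DUT, which removes dUTP, was lowest at 478, a ratio of 4.01. The salvage enzyme TK1 (1598) and the reductase subunits RRM1 and RRM2 and the kinase DTYMK lay between them. Both subunits of ribonucleotide reductase were listed, with the small subunit RRM2 at 1212 and the large subunit RRM1 at 679.

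Chromatin assembly and fork stability genes followed no common level. CAF-1 deposits histones behind the fork, and its large subunit CHAF1A had a level of 450 reads per kb beside 137 for CHAF1B. UHRF1, which reads hemimethylated DNA and recruits the maintenance methyltransferase, had 251. Of the fork protection and cohesion factors, TIPIN was highest at 788 and CHTF18, a subunit of the alternative clamp loader that acts in cohesion, was lowest at 14.5. The remaining 4 genes of that group, its partner DSCC1 among them, lay between these values and above the all-gene median.

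**Figure D3:**
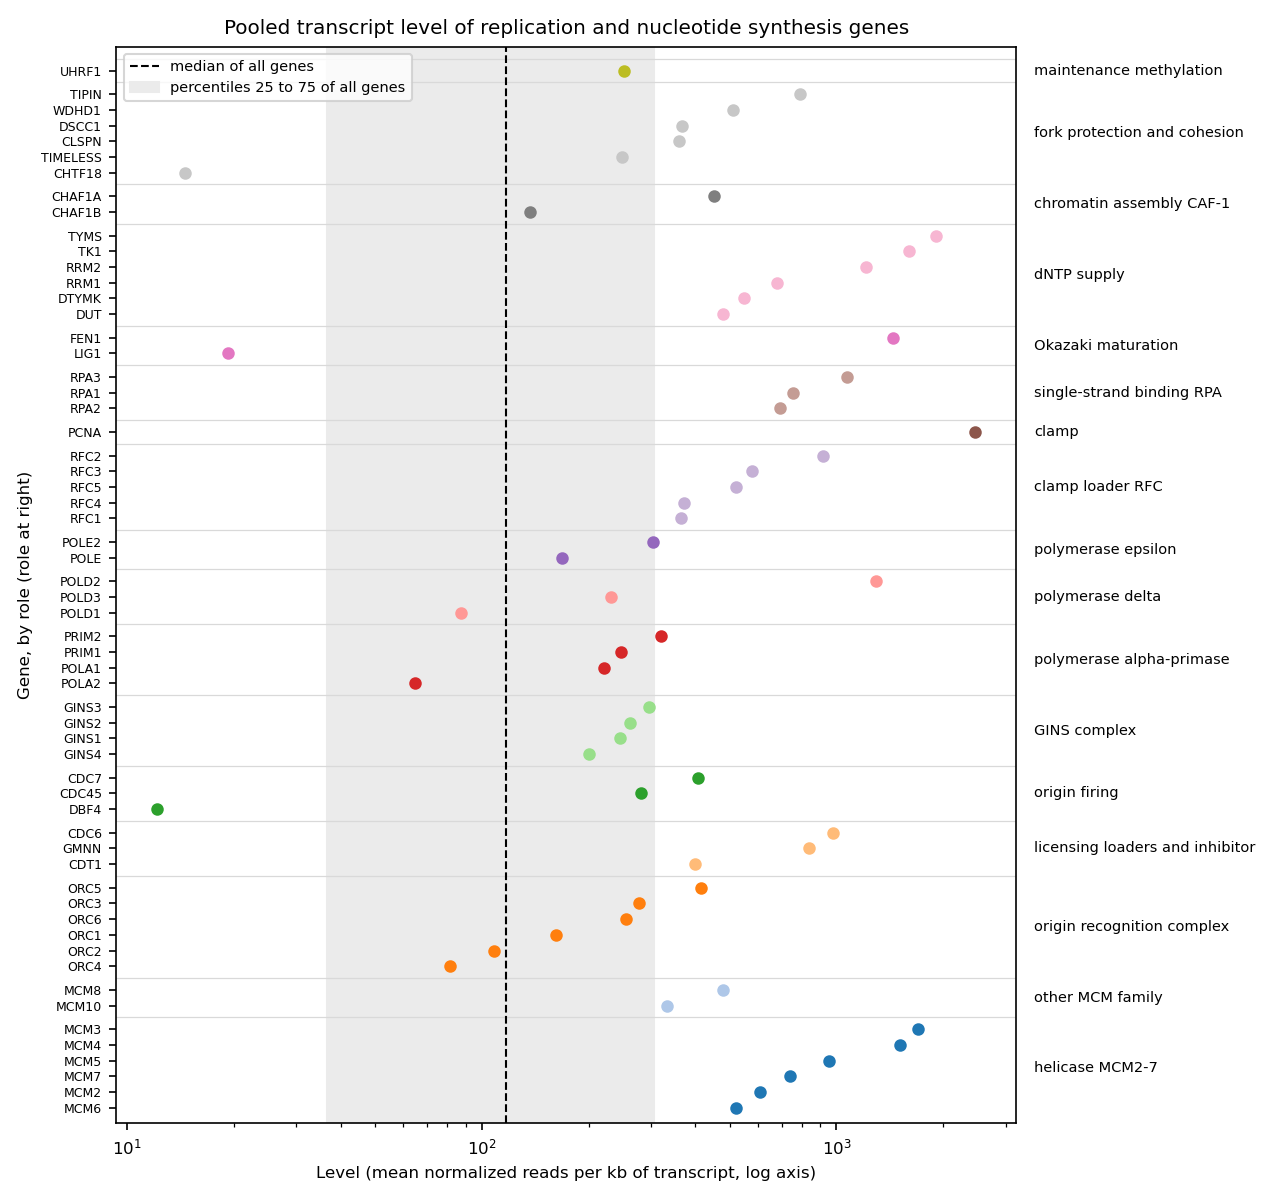
Level of each of the 59 members in reads per kb (x axis, log scale), grouped by role (y axis, with role names at right); each point is 1 pooled value, the dashed line the median of all genes (117) and the grey band percentiles 25 to 75 (36.6 to 306). MCM2-7, RPA and dNTP supply genes lie wholly right of the line, and DBF4, CHTF18 and LIG1 stand apart at the left with levels under 20 reads per kb.

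The level of a replication gene depended on which of its transcripts was read. The 59 members had 151 protein-coding rows, with 11 members on 1 such row, 48 on 2 or more and at most 5, and a further 89 rows of other types. In the median member the leading coding transcript gave 78.6% of the level, against 85.2% over all genes, and it gave under 50% in 11 members (18.6%) and in 10.2% of all genes. The smallest leading shares were 28.7% for ORC4, 38.9% for MCM4, 40.9% for POLD1, 43.3% for POLD2 and 43.7% for MCM5. ORC4 was spread over 5 long coding transcripts of mean normalized count 148.1 to 53.6, whereas in MCM5 short coding transcripts of 551 and 739 bases stood beside longer ones of 2402 and 3534 bases. The leading transcript by level was the Ensembl canonical one in 35 members (59.3%), near the 61.9% of all genes.

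Rows of other types, which are retained introns, transcripts subject to nonsense-mediated decay (NMD) and processed transcripts, held 10.4% of the members' reads and 11.8% over all coding genes. The median member had 4.80% of its reads there, beside 1.20% for all genes, and 3 members had more than 50%, against 9.46% of all genes. In DBF4 the share was 94.3%. Its NMD transcripts had mean normalized counts of 573.7 and 207.9, and its only listed coding transcript had 47.6. CHTF18 had 76.8% of its reads in retained introns, with counts of 77.6, 52.2 and 22.6 beside 46.1 for the coding transcript. ORC6, an origin recognition subunit, had 59.9% in other types, mostly retained introns, and POLA2 had 46.8%, mostly in 1 NMD transcript of count 142.0. RFC4, a clamp loader subunit, had 38.2%, all in retained introns, and its leading coding transcript had a length of 479 bases. These splits were estimated by the counting step from shared sequence, and the error of the split is unknown.

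**Figure D4:**
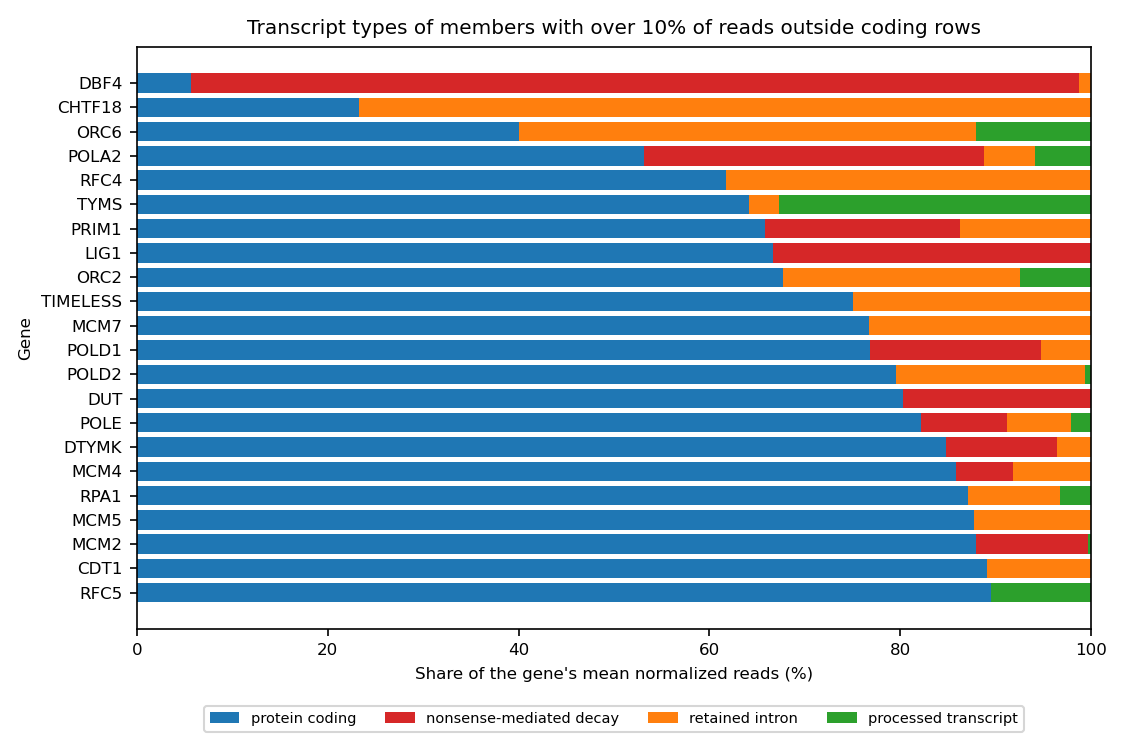
Share of each gene's mean normalized reads in percent (x axis) by annotated transcript type, for the members (y axis) with more than 10% outside protein-coding rows. DBF4 is mostly NMD (93.1%), CHTF18 mostly retained intron (76.8%), and TYMS has most of its non-coding part in a processed transcript.

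Reading all transcript types together changed the low end of the order. The level of DBF4 was 12.2 reads per kb by coding rows and 352.7 over all types, 29.0 times its coding level, and that of CHTF18 was 14.5 and 113.1. LIG1 stayed low at 27.9, percentile 16.3 of all genes read the same way. With all types, 4 members remained below the all-gene median (CHTF18, LIG1, ORC4 and POLD1), against 7 by coding rows. Of the members, 8 had a level at least 2 times higher over all types. Besides DBF4 and CHTF18 they were ORC6, ORC2, POLA2, TIMELESS, TYMS and MCM4. The share of all genes with such a rise was not computed, so this count is not shown to be particular to the set.

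The genomic surroundings of the members, which the choice of genes did not use, were taken from the annotation. In GENCODE 44 on hg38, 19 of the 59 members (32.2%) had the start of another protein-coding gene on the opposite strand within 1000 bases upstream, against 1363 of 12095 genes (11.3%). Such pairs included PCNA (chr20:5114953-5126626, minus strand) with CDS2, TK1 with AFMID, FEN1 with TMEM258, MCM4 with PRKDC and ORC6 with VPS35, 5 pairs named after their positions were seen. Exons of 23 members (39.0%) overlapped an exon on the opposite strand, against 42.3% of all genes, and for 15 of them (25.4%, against 22.3%) an overlapping gene was itself listed. TYMS (chr18:657653-673578, plus strand) overlapped ENOSF1 and TYMSOS, DBF4 (chr7:87876216-87909553, plus strand) overlapped SLC25A40, and CHTF18 (chr16:788046-800737, plus strand) overlapped the listed gene RPUSD1. LIG1 (chr19:48115445-48170603, minus strand) overlapped only a gene with no row. Whether the counting used strand is not given in the sources used here, so the part of such partners in these levels was not tested. For 13 members (22.0%, against 14.5% of all genes), among them PCNA, DUT and RRM2, the annotation holds pseudogenes named after the gene, and none of those had a row of its own.

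Other genes of the pathway, outside the set, had a lower median level. Of a list of 37 replication and nucleotide genes, 36 were listed (all but POLE4), with a median level of 216 reads per kb, and 27 of the 36 lay above the all-gene median. The highest was TOP2A, the topoisomerase that separates daughter strands, at 1571, and the lowest was POLD4, the smallest polymerase delta subunit, at 9.04. More than 50% of reads stood in other transcript types for 5 of them: DBF4B (92.4%), POLD4 (89.6%), the dCMP deaminase DCTD (85.7%), NME1 (52.5%) and DNMT1 (50.9%). DBF4B, the paralogue of DBF4, thus had a coding level of 12.3 reads per kb and a share in other types close to that of DBF4 itself.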

How the data were processed

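Libraries of 2 biological replicates per group came from MDA-MB-231 cells after 24 h in DMSO or 10 µM KH-3, and groups follow the sample labels. The authors mapped reads with STAR to GENCODE 24 transcripts (hg38), estimated reads per transcript with eXpress and compared groups with DESeq2. Tool versions are not given in the sources used here. The deposited signal is a normalized read count per transcript, averaged by the authors. The sources used here do not say which libraries were averaged, and the methods also name a lower dose. The 3 columns of the authors' comparison, which hold a log2 fold change, a p-value and a q-value, were not used. The table gives 1 pooled value per transcript and no values per library, so the depth behind each value is unknown, and the lowest listed mean was 7.34.

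Levels were summed per gene over protein-coding rows after division by transcript length in kb. Percentiles are among 12120 genes. Positions, canonical tags and neighbours came from GENCODE 44, promoters from RefSeq (GRCh38.p14), using the start nearest to the coding transcript with most reads. For LIG1 and MCM4 that transcript was not in GENCODE 44. The promoter of LIG1 was therefore the first entry by position, and MCM4 had no entry. Protein sequences were not used here. Named were the highest and lowest member of each role group of 3 or more, every member of smaller groups, the 5 highest and 5 lowest of all members, and in the transcript comparison the 5 smallest leading shares and 5 largest shares in other types. GMNN, CDC45, PRIM1, RFC3, RPA1, RRM1, RRM2, DTYMK, DSCC1, TIMELESS and the members named only for a promoter or a position were chosen after their values were seen. The members and lists were chosen with earlier results of these data known. Alternatives covered transcript choice, transcript type, length and a minimum mean of 20, and the canonical transcript was added after the data were seen. The gene sums and the motif search were tested on simulated data. Python 3.11.15, numpy 2.4.6, pandas 2.3.3 and matplotlib 3.10.9 were used.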

Additional observations from a re-analysis of the deposited data

How the results depend on the processing

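A value was taken as unchanged when it lay within 1.5 times the one reported. Of 53 alternative values, 37 were unchanged and 16 moved. The number of members above the all-gene median stayed between 44 and 55 in every alternative run, and the ratio of the members' median to the all-gene median between 2.83 and 3.59. The median level itself was 986 reads without division by length, which is another unit than reads per kb, so its label as moved does not speak to stability. It was 233 reads per kb with the Ensembl canonical transcript alone, which was tried after the data were seen and left 55 members listed. The ratio of highest to lowest subunit was the least stable value. For the origin recognition complex it was 17.5 with the leading transcript only, 9.03 with all transcript types, 1.94 without division by length and 20.3 with the canonical transcript. For RFC it was 3.87 with the leading transcript, 7.66 without length and 11.7 with the canonical one. For RPA it was 4.94 without length, 2.36 with an effective length and 7.40 with the canonical transcript. For MCM2-7 it was 4.97 with all types and 9.64 over the 5 subunits with a canonical row, for polymerase alpha-primase 2.65 with all types, and for GINS 4.56 with the canonical transcript. The ratio within a complex thus depends on which transcripts are read.

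No paired analysis was possible because the values used are pooled over libraries, and for the same reason leaving out a replicate could not be run. Replicate spread and depth are unknown, transcripts under a mean normalized count of 7.34 are not listed, and a gene with no row is not shown to be silent.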
